A study of Mus musculus with 6 samples.

Results

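Mitosis and spindle genes are 49 genes whose products drive entry into mitosis, build the spindle, attach chromosomes to it, time their separation and cleave the cell. They were taken by gene symbol from a fixed list of names, and all 49 were found in all 6 libraries, among 20788 genes found in any of them, and all 49 were among the 14336 genes tested. RNA sequencing had been done on 3 libraries each of Tyr-L and Tyr-H cells. Both are subclones of B16, a mouse melanoma line (strain C57BL/6), that the labels describe as having low and high tyrosinase activity. Both had been grown in low-glucose DMEM with 10% fetal bovine serum, penicillin and streptomycin, with no other treatment and no engineered allele named. The study's methods describe picking the subclones as single colonies from sparsely seeded dishes. The sources used here do not give whether 1 such colony or separate cultures supplied a group's libraries, so p-values measure the spread between these libraries, which may be technical.

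Genes of mitosis are transcribed late in the cell cycle, when a cell has copied its DNA and prepares to divide, and many of their proteins are destroyed when it leaves mitosis. Cyclin B and CDK1 start mitosis, the Polo and Aurora kinases organise the spindle, the spindle assembly checkpoint delays anaphase until every kinetochore is attached, and the anaphase-promoting complex then releases separase, which cuts the link between sister chromatids. Their summed level in cultured tumour cells is a common measure of how many cells are cycling. These are bulk RNA values, so fewer cells in that phase and less RNA per such cell cannot be told apart.

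The deposited values are FPKM, fragments scaled by the transcript's length and the library's mapped fragments, so they can be compared between genes per length. The libraries listed 17211 to 17413 genes in Tyr-L cells and 16813 to 16949 in Tyr-H cells, with an estimated depth of 18600000 to 22400000 fragments that covers counting error only. *Tyr*, which encodes tyrosinase, was measured at 10.7, 9.52 and 9.8 FPKM in Tyr-L cells and at 23.8, 20.6 and 19.7 FPKM in Tyr-H cells, in the direction of the labels. The other 6 melanocyte markers were lower in Tyr-H cells, by log2 fold changes from -1.85 (*Mitf*) to -0.23. All 7 melanocyte markers reached 1 FPKM, and their summed level was 7340 to 7660 FPKM in Tyr-L cells and 5440 to 5960 FPKM in Tyr-H cells. Markers of other cells stayed low. The 5 leukocyte markers summed to at most 0.0169 FPKM with *Ptprc* unlisted, the 5 macrophage markers to 3.44 to 4.18 FPKM in Tyr-L cells and 4.44 to 4.83 FPKM in Tyr-H cells (1 of them, *Cd68*, reached 1 FPKM), the 5 fibroblast markers to at most 1.03 and 1.18 FPKM, the 4 endothelial markers to at most 0.0472 and 0.054 FPKM, and the 4 keratinocyte markers to at most 0.0349 and 0.0321 FPKM. The part of the melanocyte and macrophage marker levels in the results was not tested.

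Of the 49 genes, 48 were lower in Tyr-H cells and 1, *Pttg1*, was higher (limma, Benjamini-Hochberg adjusted p at most 0.05 over all tested genes). Of all tested genes, 39.9% were lower and 17.9% higher by the same rule. The groups did not overlap for any of the 49 genes: in 48 all 3 Tyr-H libraries lay below all 3 Tyr-L libraries, against 43.8% of all tested genes, and in 1 they lay above, against 20.2%. The median log2 fold change, with Tyr-L as the reference throughout, was -0.53, which is a level of 69.0% of that in Tyr-L cells, and the median over all tested genes was -0.15 (89.9%). The fold changes ran from -1.25 (*Cenpf*) to 0.42 (*Pttg1*), 38 of them lay between -0.3 and -0.8, and 48 lay below the median of all tested genes. A fall of at least 2-fold was passed by 5 genes, *Cenpf*, *Cenpe*, *Mki67*, *Kif20b* and *Smc4*, against 5.78% of all tested genes lower by that rule, and none rose by it, against 2.96% (8.75% in either direction).

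The libraries of a group were close. The median FPKM of the 49 genes was 43.7, 45.2 and 43.4 in Tyr-L libraries 1, 2 and 3 and 28.5, 28.6 and 26.1 in the Tyr-H libraries. As a part of the total FPKM, the 49 genes made up 5217, 5146 and 5230 per 1000000 in Tyr-L cells and 3579, 3473 and 3228 per 1000000 in Tyr-H cells, so the lowest Tyr-L library stood above the highest Tyr-H library. The median coefficient of variation over the genes was 3.72% in Tyr-L cells and 3.74% in Tyr-H cells, and the largest were 18.2% and 16%. Tyr-H library 3 was the lowest of its group in sum and lay below the group mean for 44 of the 49 genes.

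**Figure D1:**
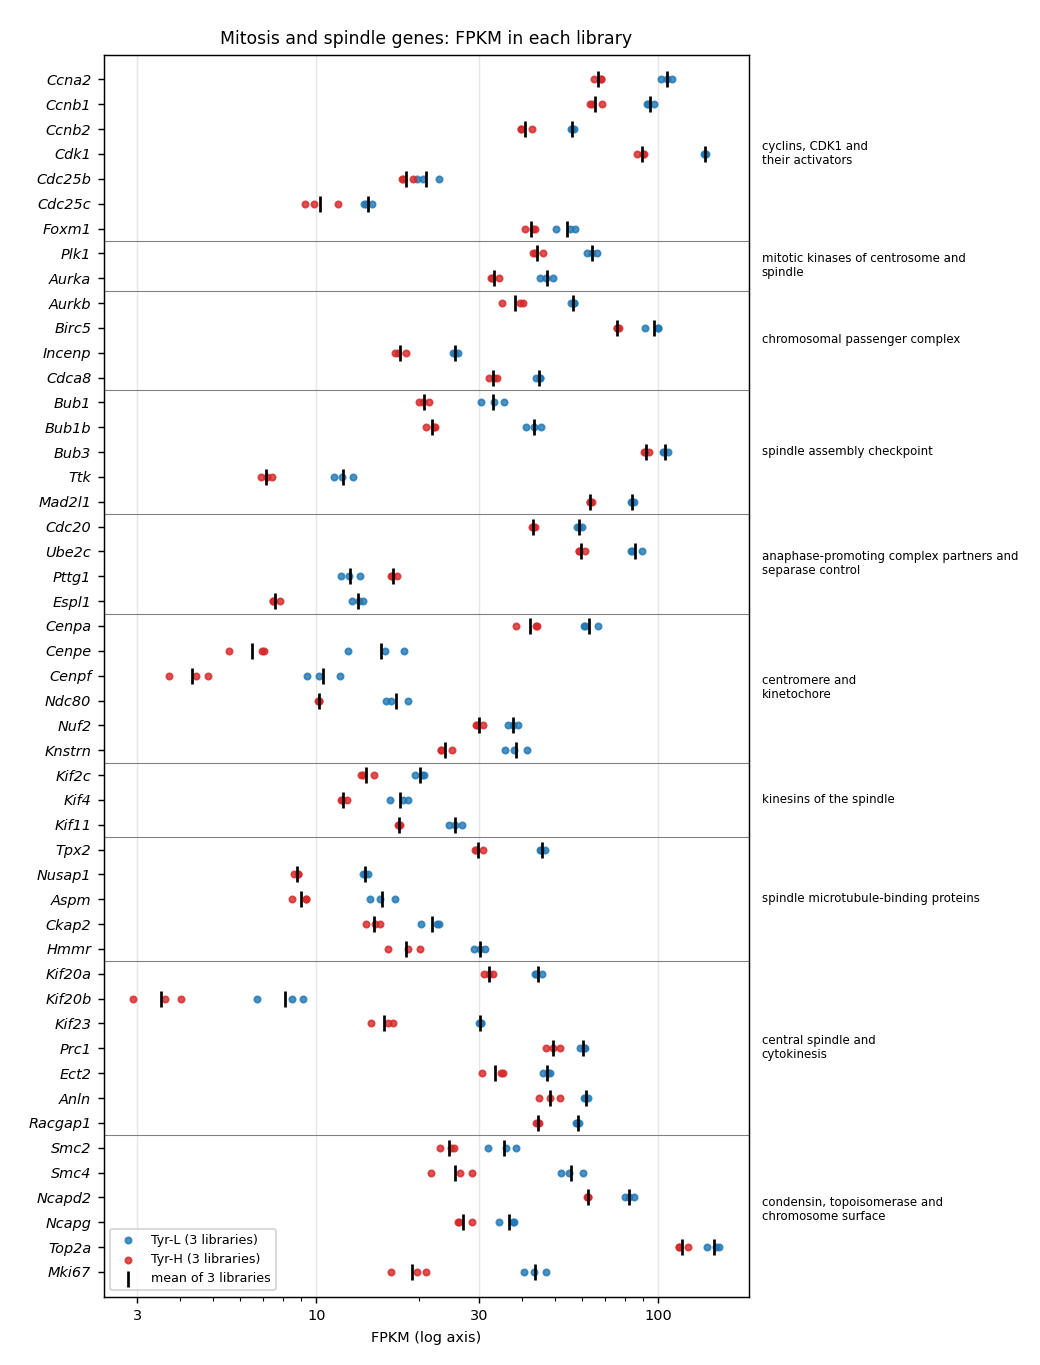
FPKM of each of the 49 genes (log axis) in the 3 Tyr-L and 3 Tyr-H libraries, grouped by role, with a bar at each group mean. The Tyr-H points lie to the left of the Tyr-L points in 48 rows and to the right in the *Pttg1* row, and no row has overlapping groups.

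The setting of the values' scale moved the sizes. Scaling by the median ratio of genes moved the median of all tested genes from -0.15 to -0.01, and under it the 49 genes had a median of -0.38, with 46 lower and 1 higher where 27.0% of all tested genes were lower and 27.8% higher. *Cdc25b* and *Bub3*, with -0.04 and -0.03, were the 2 that did not pass, and *Smc4* (-0.98) left the 2-fold calls. A correction for the GC content and length of transcripts gave a median of -0.42, with 42 lower and 1 higher against 27.5% and 27.2% of all tested genes, and none of the 5 genes then fell by 2-fold. Quantile normalization left 47 lower and 1 higher (27.9% and 25.9% of all tested genes), the length correction alone 45 and 1 (27.6% and 27.1%), and the GC correction alone 43 and 1 (27.0% and 27.3%). The plot of fitted fold changes shows each gene under these settings.

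**Figure D2:**
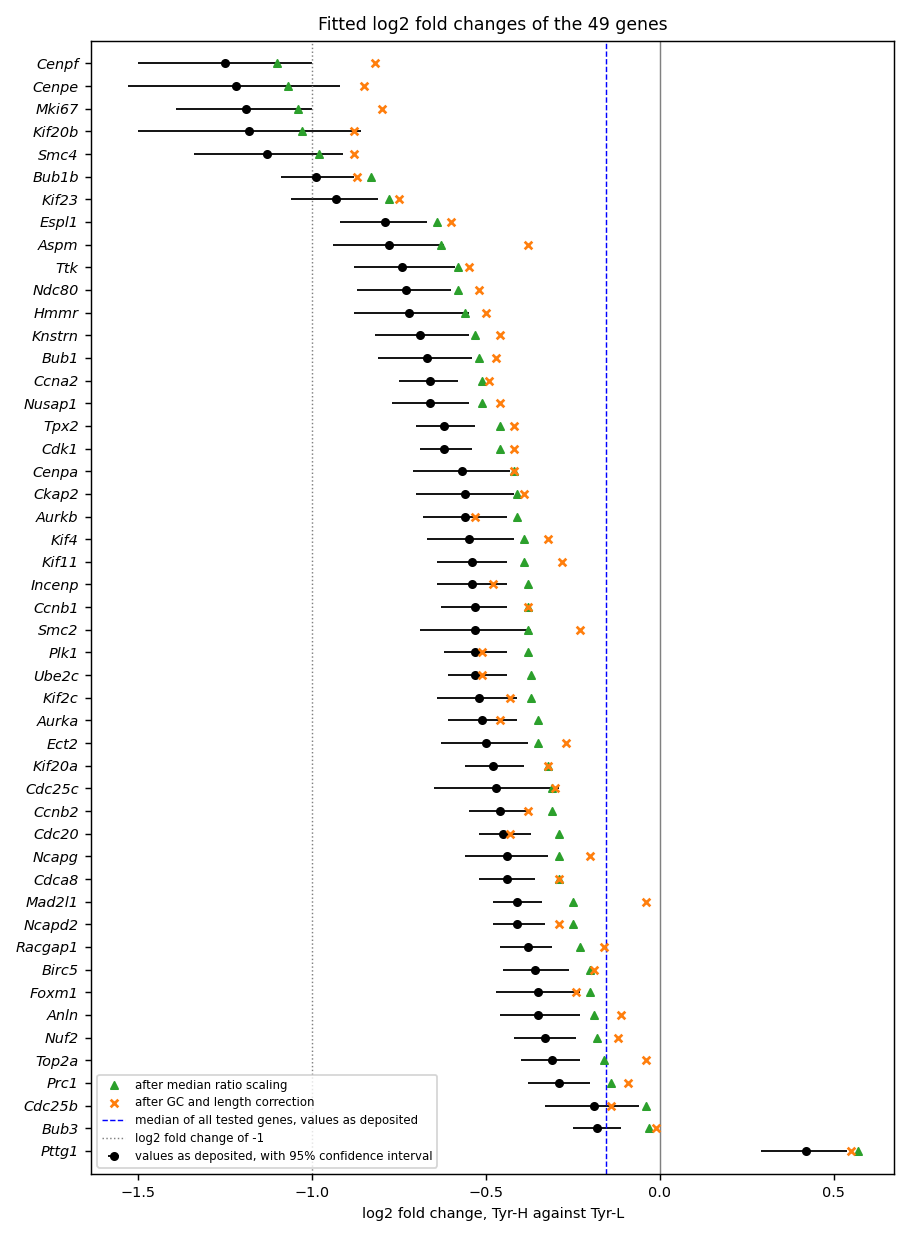
Fitted log2 fold change in Tyr-H cells relative to Tyr-L cells for the 49 genes, with its 95% confidence interval (black), after median ratio scaling (green) and after a correction for transcript GC content and length (orange). 48 of the 49 black points lie left of the median of all tested genes at -0.15, and the 5 lowest move right of -1 after the GC and length correction.

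Promoters of late cell cycle genes are known for a pair of short elements, the CHR (cell cycle genes homology region) and the CCAAT box, so both were searched in the RefSeq promoter windows of GRCm38.p6, which hold 250 bases before and 50 bases after the start site. Windows were found for 41 of the 49 genes (44 windows), and not for *Aurkb*, *Ccna2*, *Cdc25c*, *Foxm1*, *Incenp*, *Kif20a*, *Smc4* and *Tpx2*. The letters TTTGAA, on either strand, occurred in 77.3% of these windows and in 17.9% of all 32851 windows. The letters CCAAT, on either strand, occurred in 77.3% and 37.4%, at least 2 such matches in 47.7% and 11.7%, and both elements in 68.2% and 6.95%. In the 250 bases before the start the shares with TTTGAA were 40.9% and 16%. A match is a run of letters and was not tested as a binding site.

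The 4 genes with the largest fold changes among the 15 with both elements before the start site are shown first, since they place the elements relative to each other. Each sequence is the 250 bases before the start on the gene's own strand, with the CHR letters (TTTGAA) and the CCAAT box in capitals on whichever strand they were read, from *Mki67* (chr7:135716380-135716629, minus strand), *Espl1* (chr15:102296043-102296292, plus strand), *Cdk1* (chr10:69352913-69353162, minus strand) and *Ckap2* (chr8:22185820-22186069, minus strand).
Mki67: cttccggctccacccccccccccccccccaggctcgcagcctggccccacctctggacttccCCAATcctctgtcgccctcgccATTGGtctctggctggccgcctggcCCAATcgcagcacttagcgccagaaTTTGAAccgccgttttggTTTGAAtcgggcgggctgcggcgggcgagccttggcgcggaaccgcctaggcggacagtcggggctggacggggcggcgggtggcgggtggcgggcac
Espl1: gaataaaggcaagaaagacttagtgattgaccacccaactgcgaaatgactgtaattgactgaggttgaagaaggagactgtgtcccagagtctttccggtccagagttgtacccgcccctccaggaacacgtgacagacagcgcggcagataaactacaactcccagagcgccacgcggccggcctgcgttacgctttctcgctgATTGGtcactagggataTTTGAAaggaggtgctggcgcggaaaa
Cdk1: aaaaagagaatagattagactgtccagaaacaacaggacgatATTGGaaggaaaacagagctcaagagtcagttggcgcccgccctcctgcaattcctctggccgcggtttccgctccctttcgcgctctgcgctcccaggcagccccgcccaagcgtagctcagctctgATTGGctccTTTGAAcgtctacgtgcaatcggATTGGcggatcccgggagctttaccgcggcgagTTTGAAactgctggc
Ckap2: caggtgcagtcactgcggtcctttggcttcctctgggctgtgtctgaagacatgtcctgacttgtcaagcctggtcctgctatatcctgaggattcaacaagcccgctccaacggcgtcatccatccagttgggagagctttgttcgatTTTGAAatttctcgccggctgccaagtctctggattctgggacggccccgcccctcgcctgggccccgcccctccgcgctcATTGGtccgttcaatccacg
*Mki67* has 3 CCAAT boxes before 2 CHR elements. *Cdk1* also has 3 and 2, but its last CCAAT box (position -48) lies between the CHR elements (-71 and -15). *Espl1* and *Ckap2* have 1 of each, with the CCAAT box first in *Espl1* and the CHR first in *Ckap2*.

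In many other genes the CHR letters lay near the start site, before or after it. Stretches of 24 bases around matches on the gene's own strand, chosen after the values were seen, are shown for genes of several roles. The capitals mark TTTGAA, the letters searched for, which all of them therefore share. They come from a kinetochore protein (*Cenpf*), central spindle kinesins (*Kif20b*, *Kif23*), mitotic kinases (*Plk1*, *Aurka*), a cyclin (*Ccnb2*), an activator of the anaphase-promoting complex (*Cdc20*) and the partner of *Kif23* (*Racgap1*).
Cenpf: cggcgggcagTTTGAAtcgctcgt
Kif20b: gccgccattgTTTGAAtttgaaaa
Kif23: gattggcctgTTTGAAatgcgccg
Plk1: cagcgccgcgTTTGAAttcgggga
Aurka: aaggagaaccTTTGAAttgtaacg
Ccnb2: cggcgcggtaTTTGAAtcgcggac
Cdc20: acagttgggtTTTGAAggagccaa
Racgap1: ggtgcgtgatTTTGAAccggatct
The first base of the capitals lies 3 bases after the start in *Cenpf* and *Kif23*, 8 in *Kif20b*, 31 in *Plk1*, 33 in *Aurka*, 5 in *Ccnb2* and 6 in *Racgap1*, and 18 bases before it (position -18) in *Cdc20*. *Kif20b* has another TTTGAA directly behind the first, at position 14, and *Ccnb2* has another far before the start, at position -167.

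With 1 window a gene (that of the start site farthest upstream where RefSeq gave several), the 41 genes held 39 CHR matches at a median position of 3, of which 20 lay after the start and 29 from -60 to 50. The 69 CCAAT matches had a median position of -71, and 40 of them lay from -150 to -30. The 27 genes with both elements in the window had a median log2 fold change of -0.53 (range -1.25 to -0.18), the 4 with CCAAT only -0.60, and the 4 with CHR only -0.62. The 6 with neither, *Knstrn*, *Nusap1*, *Mad2l1*, *Birc5*, *Nuf2* and *Pttg1*, had a median of -0.38 (range -0.69 to 0.42). The ranges overlapped, and some genes without either element fell more than the median of those with both. *Pttg1*, the gene that was higher, is among the 6.

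**Figure D3:**
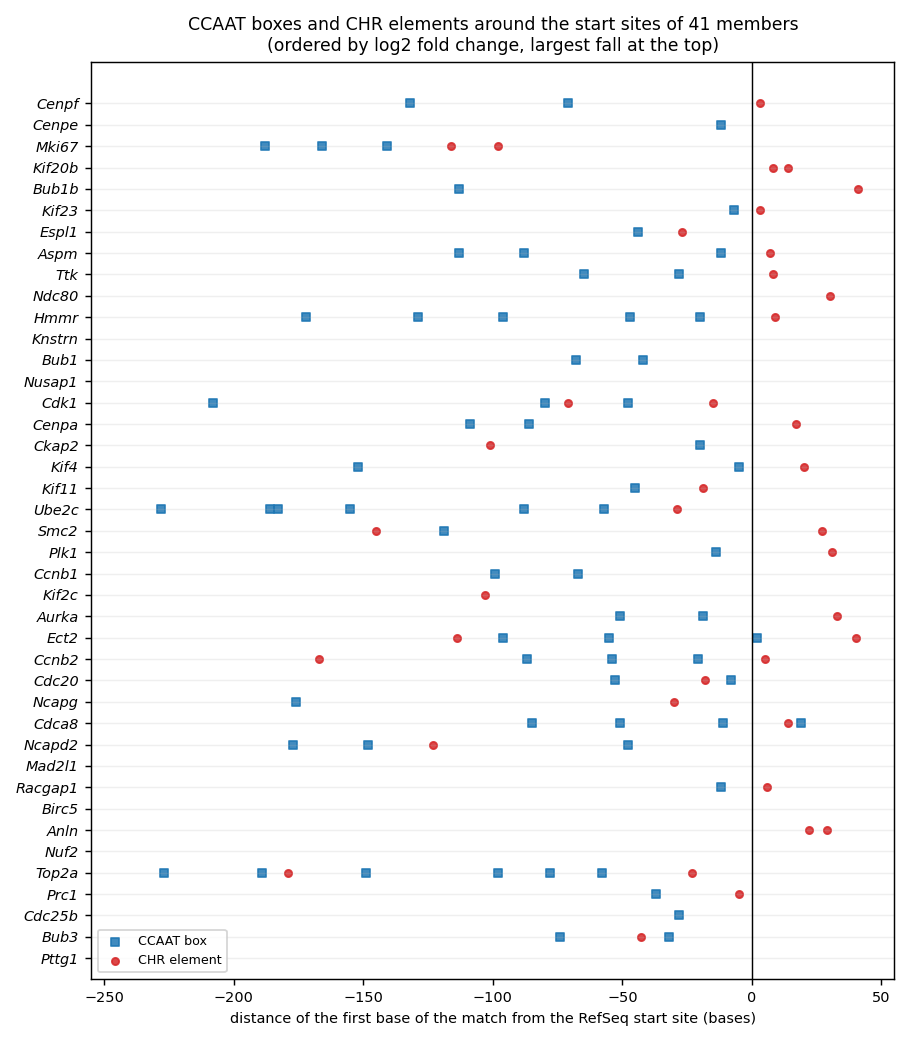
Positions of CCAAT boxes (blue squares) and CHR elements (red circles) around the RefSeq start site (0) in the windows of 41 genes, 1 row a gene, in order of the log2 fold change with the largest fall at the top. Most squares lie upstream (median -71), and most circles lie near the start (median 3).

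The genes that start mitosis fell by a median log2 fold change of -0.47, and all 7 were lower, against 39.9% of all tested genes. *Cdk1*, the kinase that carries a cell into mitosis, was measured at 137, 136 and 138 FPKM in Tyr-L cells and at 91.0, 90.5 and 86.8 FPKM in Tyr-H cells, a log2 fold change of -0.62 (SE 0.03, limma adjusted p 8e-07). Its partner *Ccnb1* (cyclin B1) was measured at 97.4, 93.6 and 92.9 FPKM in Tyr-L cells and at 68.7, 64.1 and 63.2 FPKM in Tyr-H cells (-0.53, SE 0.04). *Ccna2* (cyclin A2), which acts earlier, in DNA synthesis and G2, had means of 106 ± 3.93 and 66.8 ± 1.81 FPKM (SD, n = 3) and the largest fall of the 7, of -0.66. In the values as deposited, the cyclins did not all keep their ratio to the kinase. The ratio of *Ccnb1* to *Cdk1* was 0.709, 0.688 and 0.674 in Tyr-L cells and 0.754, 0.708 and 0.728 in Tyr-H cells, and that of *Ccna2* to *Cdk1* was 0.770, 0.805 and 0.738 and then 0.745, 0.749 and 0.745, with overlapping groups for both. That of *Ccnb2* to *Cdk1* was 0.403, 0.417 and 0.406 in Tyr-L cells and 0.435, 0.473 and 0.457 in Tyr-H cells, with no overlap. After the GC and length correction the fold changes of this pair lay closer, with -0.38 for *Ccnb2* and -0.42 for *Cdk1*.

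*Ccnb2* (cyclin B2) fell by 0.46, from a mean of 56.1 ± 0.712 to 40.7 ± 1.82 FPKM. *Cdc25b* and *Cdc25c* encode phosphatases that remove the inhibitory phosphates from CDK1. *Cdc25c* was measured at 14, 14.6 and 13.8 FPKM in Tyr-L cells and at 11.6, 9.84 and 9.28 FPKM in Tyr-H cells (-0.47, SE 0.08, and -0.30 after the GC and length correction), which puts Tyr-H library 1 nearest to Tyr-L. *Cdc25b* was measured at 20.5, 22.8 and 19.7 FPKM and at 17.8, 17.9 and 19.2 FPKM, with the groups just apart (19.7 against 19.2). Its log2 fold change of -0.19 had the highest limma adjusted p of the 49 genes, 0.021, which rose to 0.07, 0.064 and 0.069 without Tyr-L library 2, Tyr-H library 1 and Tyr-H library 2, respectively. *Foxm1*, a transcription factor of G2 and mitosis genes, fell by 0.35 (54.3 ± 3.52 to 42.5 ± 1.55 FPKM). The locus of *Ccna2* overlaps *Exosc9* and that of *Cdc25b* overlaps *Spef1*, both on the opposite strand, and whether reads were counted by strand is not given in the sources used here.

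The mitotic kinases *Plk1* and *Aurka*, which mature the centrosomes and set up the spindle poles, fell alike. *Plk1* was measured at 61.8, 63.8 and 66.0 FPKM in Tyr-L cells and at 46.1, 43.6 and 43.0 FPKM in Tyr-H cells (-0.53, SE 0.04, limma adjusted p 7e-06). *Aurka* was measured at 49.3, 46.9 and 45.2 FPKM and at 34.3, 32.7 and 32.4 FPKM (-0.51, SE 0.04, limma adjusted p 1.3e-05). *Tpx2*, the spindle protein that activates Aurora A, fell slightly more (-0.62), and its ratio to *Aurka* was 0.943, 0.969 and 0.994 in Tyr-L cells and 0.893, 0.898 and 0.900 in Tyr-H cells. These groups do not overlap, by a small step of -0.11 on the log2 scale. The order was not kept after the GC and length correction, with -0.42 for *Tpx2* and -0.46 for *Aurka*.

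The chromosomal passenger complex corrects faulty attachments of chromosomes and later guides cytokinesis, and its 4 genes had a median of -0.49. *Aurkb*, its kinase, was measured at 56.7, 55.4 and 56.9 FPKM in Tyr-L cells and at 40.2, 39.5 and 34.9 FPKM in Tyr-H cells (-0.56, SE 0.05). *Incenp*, its scaffold, fell by 0.54, from 25.5 ± 0.496 to 17.5 ± 0.709 FPKM, and the ratio of *Aurkb* to *Incenp* was 2.21 ± 0.0316 and 2.18 ± 0.137 with overlapping groups. *Cdca8* (borealin) fell by 0.44 and *Birc5* (survivin) by 0.36, with -0.29 and -0.19 after the GC and length correction. The subunits thus fell by 0.36 to 0.56, with the kinase and its scaffold together. *Cdca8* overlaps *9930104L06Rik* on the opposite strand.

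The spindle assembly checkpoint genes fell less evenly, with a median of -0.67 and a range of -0.99 to -0.18. *Bub1b*, whose product BubR1 is part of the inhibitor of the anaphase-promoting complex, was measured at 41.1, 45.4 and 43.3 FPKM in Tyr-L cells and at 22.1, 22.2 and 21.0 FPKM in Tyr-H cells. Its log2 fold change of -0.99 (SE 0.05, 95% confidence interval -1.09 to -0.88) had the lowest limma adjusted p of the 49 genes, 5.5e-07, and it passed the 2-fold rule without Tyr-L library 1 (-1.02) or without Tyr-H library 2 (-1.0). *Bub3*, which brings BubR1 and Bub1 to kinetochores, was measured at 104, 107 and 103 FPKM and at 93.7, 90.8 and 91.7 FPKM, the smallest fall of the 49 (-0.18, SE 0.03, limma adjusted p 0.00082). In Tyr-H cells *Bub1b* stood at 50.3% and *Bub3* at 88.0% of the level in Tyr-L cells, and the ratio of *Bub1b* to *Bub3* was 0.396, 0.425 and 0.419 in Tyr-L cells and 0.236, 0.245 and 0.229 in Tyr-H cells. The locus given for *Bub3* in the deposited tables is far longer than the annotated gene, so its value is uncertain. Its fall did not hold under median ratio scaling (-0.03) or the GC and length correction (-0.01).

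*Bub1*, a kinetochore kinase, was measured at 33.2, 30.3 and 35.4 FPKM in Tyr-L cells and at 21.3, 20.5 and 20 FPKM in Tyr-H cells (-0.67, SE 0.06). *Ttk*, which encodes the kinase MPS1 at the head of the checkpoint, was measured at 11.9, 11.3 and 12.8 FPKM and at 7.16, 7.43 and 6.88 FPKM (-0.74, SE 0.06). *Mad2l1*, which encodes MAD2, was measured at 84.0, 84.8 and 83.3 FPKM and at 63.8, 63.0 and 63.2 FPKM (-0.41, SE 0.03). The 3 differ in size but not in direction, and in none do the groups overlap. *Mad2l1* did not pass after the GC and length correction (-0.04, limma adjusted p 0.47). That correction used its longest annotated transcript, of 7557 nt, and whether this is the transcript expressed was not tested.

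Among the genes that trigger anaphase, *Pttg1* stood apart. It encodes securin, which holds separase inactive until the anaphase-promoting complex marks it for destruction. It was measured at 11.8, 12.5 and 13.4 FPKM in Tyr-L cells and at 17.2, 16.7 and 16.5 FPKM in Tyr-H cells, so that the lowest Tyr-H library exceeded the highest Tyr-L library. The level in Tyr-H cells was 134% of that in Tyr-L cells, a log2 fold change of 0.42 (SE 0.06, 95% confidence interval 0.29 to 0.54, limma adjusted p 2e-04). The gene lies at chr11:43420250-43426251 on the minus strand of GRCm38, and no other listed gene overlaps it. Its direction was the same under each setting tried, with 0.57 after median ratio scaling, 0.55 after the GC and length correction and 0.37 to 0.46 when any 1 library was left out.

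*Espl1*, which encodes separase itself, moved the other way. It was measured at 12.7, 13.7 and 13.3 FPKM in Tyr-L cells and at 7.85, 7.49 and 7.47 FPKM in Tyr-H cells (-0.79, SE 0.06, limma adjusted p 3.9e-06). The ratio of *Pttg1* to *Espl1* was 0.924, 0.915 and 1.01 in Tyr-L cells and 2.19, 2.23 and 2.21 in Tyr-H cells, the largest change of the 13 ratios between partner genes examined (1.22 on the log2 scale). In Tyr-L cells the transcripts were at near equal levels per length, and in Tyr-H cells that of securin was the higher in all 3 libraries. *Cdc20*, which activates the complex, fell from 58.8 ± 0.957 to 43.1 ± 0.331 FPKM (-0.45), and *Ube2c*, its ubiquitin-conjugating enzyme, from 85.6 ± 3.35 to 59.4 ± 1.41 FPKM (-0.53). *Cdc20* overlaps *Elovl1*, itself at a mean of 49.1 FPKM, on the opposite strand.

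The 13 ratios were chosen with the values known, and each was compared by a two-sided exact permutation test of 3 against 3, which cannot go below p = 0.1. That p was reached by 9 of them, with a Benjamini-Hochberg value of 0.144, so no ratio passed 0.05 and the comparison rests on the library values. The 4 with overlapping groups were *Aurkb* to *Incenp* (exact p = 0.7), *Ccnb1* to *Cdk1* (exact p = 0.2), *Ccna2* to *Cdk1* (exact p = 0.4) and *Cdc25b* to *Cdc25c* (exact p = 0.2).

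The 6 centromere and kinetochore genes had a median of -0.71, and 2 of them passed 2-fold (5.78% of all tested genes). *Cenpf*, a large protein that coats kinetochores in G2 and mitosis (chr1:189640606-189688086, minus strand), was measured at 11.7, 9.41 and 10.2 FPKM in Tyr-L cells and at 4.46, 4.83 and 3.72 FPKM in Tyr-H cells. Its log2 fold change was -1.25 (SE 0.11, 95% confidence interval -1.5 to -1.0, limma adjusted p 1.6e-05). *Cenpe*, the kinesin that carries chromosomes to the spindle equator (chr3:135212537-135273611, plus strand), was measured at 18, 12.4 and 15.9 FPKM and at 7.02, 6.95 and 5.56 FPKM, with a log2 fold change of -1.22 (SE 0.14, limma adjusted p 5.6e-05). Both stayed well apart between the groups, although Tyr-L library 2 and Tyr-H library 3 were the lowest of their groups for each. After the GC and length correction their fold changes were -0.82 and -0.85, still lower at an adjusted p of at most 0.05 but no longer past 2-fold.

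*Ndc80* and *Nuf2* encode the coiled-coil pair that grips the microtubule, yet their transcripts fell by different amounts. *Ndc80* was measured at 16.6, 16 and 18.6 FPKM in Tyr-L cells and at 10.1, 10.2 and 10.2 FPKM in Tyr-H cells (-0.73, SE 0.06). *Nuf2* was measured at 38.9, 36.4 and 37.6 FPKM and at 30.8, 29.3 and 29.6 FPKM (-0.33, SE 0.04), and did not pass after the GC correction alone (-0.09, limma adjusted p 0.093), with -0.12 after the GC and length correction. Their ratio was 0.428, 0.440 and 0.493 in Tyr-L cells and 0.329, 0.350 and 0.346 in Tyr-H cells, with no overlap. *Knstrn*, an adaptor of the kinetochore and spindle, fell by 0.69, and *Cenpa*, the histone variant that marks the centromere, by 0.57, from 62.6 ± 3.39 to 42.2 ± 3.38 FPKM.

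The spindle kinesins fell by nearly the same amount. *Kif11*, the motor that pushes the poles apart, was measured at 26.7, 24.4 and 25.4 FPKM in Tyr-L cells and at 17.3, 17.6 and 17.5 FPKM in Tyr-H cells (-0.54, SE 0.05). *Kif2c*, which takes microtubules apart at centromeres, fell by 0.52 (20.1 ± 0.640 to 14 ± 0.723 FPKM), and *Kif4*, a motor on chromosome arms, by 0.55 (17.6 ± 1.07 to 12 ± 0.218 FPKM). The 3 fold changes differ by no more than their errors, SE 0.05 to 0.06, while after the GC and length correction they were -0.28 for *Kif11*, -0.43 for *Kif2c* and -0.32 for *Kif4*. *Kif4* overlaps *Pdzd11*, at a mean of 45 FPKM, on the opposite strand.

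Proteins that bind spindle microtubules had a median of -0.66. *Aspm*, which focuses the spindle poles, was measured at 15.4, 14.4 and 17.0 FPKM in Tyr-L cells and at 9.34, 9.32 and 8.50 FPKM in Tyr-H cells (-0.78, SE 0.07), and after the GC and length correction its fold change was -0.38. *Hmmr*, a hyaluronan receptor that also binds the spindle, was measured at 31.2, 29.0 and 30.1 FPKM and at 20.1, 18.6 and 16.2 FPKM (-0.72, SE 0.07). *Tpx2* was measured at 46.5, 45.4 and 45 FPKM and at 30.7, 29.4 and 29.2 FPKM. In all 3 the lowest Tyr-L library stood above the highest Tyr-H library. *Nusap1*, which bundles microtubules near chromosomes, fell by 0.66 (13.9 ± 0.263 to 8.78 ± 0.119 FPKM) and *Ckap2*, which stabilises them, by 0.56 (21.9 ± 1.45 to 14.8 ± 0.731 FPKM). *Nusap1* overlaps *Oip5* on the opposite strand.

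Central spindle and cytokinesis genes fell by a median of -0.48 and spread from -1.18 to -0.29. *Kif20b*, a kinesin of the late spindle and midbody (chr19:34922361-34975745, plus strand), was measured at 9.16, 6.70 and 8.47 FPKM in Tyr-L cells and at 3.61, 4.03 and 2.92 FPKM in Tyr-H cells (-1.18, SE 0.14, limma adjusted p 9e-05). It was the least abundant of the 49, with at least 302 estimated fragments in each library. Its fold change was -0.88 after the GC and length correction. *Kif23* was measured at 30.3, 30.3 and 30 FPKM and at 16.2, 16.8 and 14.5 FPKM (-0.93, SE 0.06, limma adjusted p 1.7e-06), and the libraries of each group lay close together.

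The protein of *Kif23* works in a complex with that of *Racgap1*, centralspindlin. *Racgap1* was measured at 58.8, 58.0 and 57.4 FPKM in Tyr-L cells and at 44.9, 44.0 and 44.5 FPKM in Tyr-H cells, a smaller fall of 0.38. The ratio of *Kif23* to *Racgap1* went from 0.516, 0.523 and 0.523 to 0.361, 0.381 and 0.326. *Ect2*, the exchange factor that centralspindlin recruits to start the furrow, fell by 0.50 (47.3 ± 1.05 to 33.4 ± 2.53 FPKM). *Kif20a*, a kinesin that moves the passenger complex to the central spindle, fell by 0.48, *Anln* (anillin), a scaffold of the contractile ring, by 0.35, and *Prc1*, which crosslinks antiparallel microtubules, by 0.29. The last pair did not pass after the GC and length correction, with -0.11 for *Anln* and -0.09 for *Prc1*, and *Racgap1* and *Ect2* then had -0.16 and -0.27. *Kif20a* overlaps *Cdc23* and *Prc1* overlaps *Rccd1*, both on the opposite strand.

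Condensin shapes mitotic chromosomes, and its genes fell unevenly. *Smc4* (chr3:69004738-69034623, plus strand) was measured at 60.1, 51.9 and 54.9 FPKM in Tyr-L cells and at 26.4, 28.6 and 21.6 FPKM in Tyr-H cells (-1.13, SE 0.09, limma adjusted p 1.1e-05). *Smc2*, its partner in the core of the complex, was measured at 38.3, 31.7 and 36.0 FPKM and at 25.3, 24.8 and 23.0 FPKM (-0.53, SE 0.07). Per length, *Smc4* exceeded *Smc2* in all 3 Tyr-L libraries, with ratios of 1.57, 1.64 and 1.53, while in the Tyr-H libraries the ratios were 1.04, 1.15 and 0.939. After the GC and length correction the fold changes were -0.88 for *Smc4* and -0.23 for *Smc2*. The condensin subunits *Ncapd2* and *Ncapg* fell by 0.41 and 0.44 (-0.29 and -0.20 after that correction), and *Ncapg* overlaps *Lcorl* on the opposite strand.

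*Mki67* encodes the Ki-67 antigen, a surfactant of mitotic chromosomes and the usual stain for cycling cells. It was measured at 47.0, 40.4 and 43.4 FPKM in Tyr-L cells and at 21.0, 19.7 and 16.6 FPKM in Tyr-H cells (-1.19, SE 0.09, 95% confidence interval -1.39 to -1.0, limma adjusted p 4.5e-06), and after the GC and length correction its fold change was -0.80. *Top2a*, the topoisomerase that untangles sister chromatids and the most abundant of the 49 transcripts, was measured at 151, 139 and 147 FPKM and at 122, 115 and 115 FPKM. Its fold change was only -0.31 (SE 0.04, limma adjusted p 0.00013) and did not pass after the GC and length correction (-0.04). Both were lower in every Tyr-H library than in any Tyr-L library, by unequal amounts.

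The transcripts with the largest falls, *Cenpf*, *Cenpe*, *Mki67* and *Kif20b*, were longer than 5000 nt. Those next in order, *Smc4* (4316 nt), *Bub1b* (3668 nt) and *Kif23* (3398 nt), were shorter. Among other long transcripts, *Mad2l1* (7557 nt) had -0.41 and *Top2a* (5221 nt) -0.31. Across the 49 genes the log2 fold change and the log2 length of the longest annotated transcript had a Pearson r of -0.51 and a Spearman rho of -0.28, a description over genes of the same libraries that also differ in GC content. Over the 11010 tested genes that averaged 1 FPKM or more the values were -0.17 and -0.22. The 9 genes of 5000 nt or more had a median of -0.79, against -0.27 for 2482 other genes of that length. The 32 of 2500 to 5000 nt had -0.54 against -0.14 for 4952 others, and the 8 shorter than 2500 nt had -0.52 against -0.04 for 3527 others. In each class the median was lower than that of other genes of like length. The part of transcript length in the fold changes beyond the correction above was not tested.

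**Figure D4:**
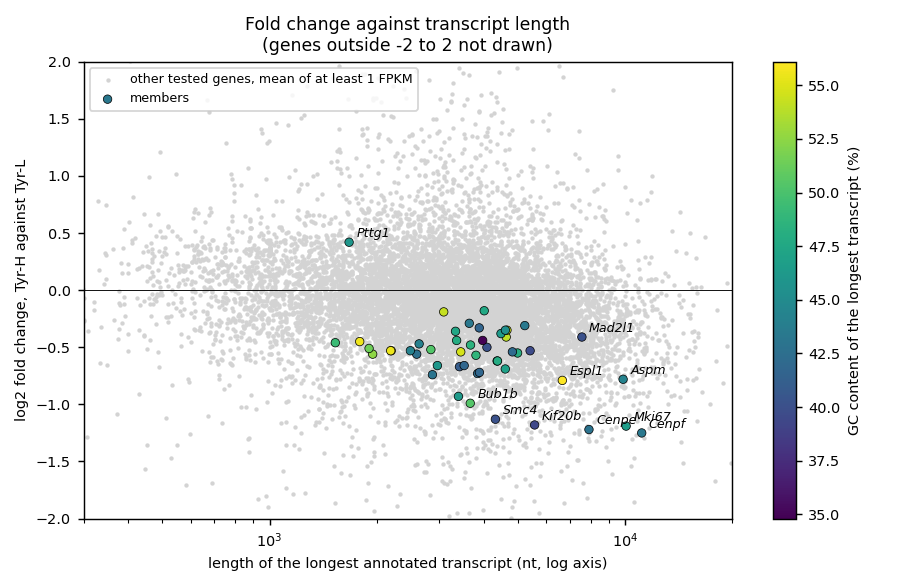
Log2 fold change in Tyr-H cells relative to Tyr-L cells against the length of the longest annotated transcript (log axis) for the 49 genes, coloured by GC content, over the other tested genes that averaged 1 FPKM or more (grey). *Cenpf*, *Mki67*, *Cenpe* and *Kif20b*, between -1.25 and -1.18, are all longer than 5000 nt, while *Smc4* (-1.13) and *Bub1b* (-0.99) are shorter.

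The genes are spread over 17 chromosomes, with 8 on chromosome 2 and 5 on chromosome 11. The median log2 fold change of a chromosome's tested genes ranged from -0.39 to -0.06 over these chromosomes, and 47 of the 49 genes were lower than the median of their own chromosome. The exceptions were *Cdc25b* and *Pttg1*. Against the median of the tested genes within 2 Mb, of which there were 5 to 83, 46 were lower.

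The rest of the mitotic machinery was followed in 119 other genes. Of these, 96 were lower (80.7%, against 39.9% of all tested genes) and 1 higher, 22 did not pass, and the median was -0.38. Motors other than those above had the lowest median, -0.64, with 7 of 7 lower. Other checkpoint genes (7 of 8 lower) had -0.50, other kinetochore and centromere genes (27 of 30) -0.48, cohesin and condensin genes (12 of 14) -0.40, spindle and centrosome genes (22 of 26) -0.39, and regulators of mitotic entry (11 of 17) -0.34. The subunits and regulators of the anaphase-promoting complex had -0.19, near the median of all tested genes, with 10 of 17 lower. The gene that was higher, *Anapc5*, is one of these subunits, was named after its value was seen and was measured at 138, 139 and 139 FPKM in Tyr-L cells and at 154, 157 and 156 FPKM in Tyr-H cells (0.17, limma adjusted p 0.0007), and the number of the 119 that were higher was 0 after rescaling each library to a total of 1000000 FPKM, 7 after median ratio scaling, 6 when values were quantile normalized and 11 after the GC and length correction, with 103, 75, 78 and 72 lower, where 47.8%, 27.0%, 27.9% and 27.5% of all tested genes were lower.

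A fall of at least 2-fold was passed by 5 of the 119 (4.2%), a smaller share than the 5.78% of all tested genes, and 4 of them are described. The calls over all tested genes moved with the setting, from 1254 in either direction to 388 with a pseudocount of 1 and 640 with a mean of at least 1 FPKM. The shares were not compared under these settings. Of the 119, 3 (2.52%) passed when the libraries were scaled by median ratios and 3 when they were quantile normalized, against 4.1% and 3.54% of all tested genes. After the length correction 2 passed (1.68%, against 4.25%), after the GC and length correction 1, *Psrc1* (0.84%, against 4.02%), after the GC correction alone 1 (0.84%, against 3.66%), and after rescaling to the total 7 (5.88%, against 8.2%). *Kif15*, a motor that works beside *Kif11*, fell from 20.6, 16.7 and 18.1 FPKM in Tyr-L cells to 7.52, 9.11 and 7.07 FPKM in Tyr-H cells (-1.22, SE 0.10). *Knl1*, the kinetochore platform on which Bub1 and Bub3 assemble, fell from 11.2, 9.23 and 10.1 to 4.36, 4.84 and 4.04 FPKM (-1.19, SE 0.09). *Psrc1*, a spindle protein, fell from 85.2, 79.9 and 81.5 to 40.2, 35.5 and 35.1 FPKM (-1.15, SE 0.05). In all 3 the groups lay far apart. *Mastl*, a kinase that keeps mitotic phosphorylation in place, fell by 1.0 and lay above -1 without Tyr-L library 1 (-0.94), Tyr-L library 3 (-0.99) or Tyr-H library 3 (-0.95).

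Genes of the earlier cell cycle gave a comparison. Of 49 DNA replication genes, 43 were lower (87.8%, against 39.9% of all tested genes; limma, adjusted p at most 0.05), the fold changes ran from -0.91 to 0.10, and the median was -0.43. Under median ratio scaling 36 were lower (73.5%, against 27.0%) and 3 higher, and after the GC correction alone 35 were lower (71.4%, against 27.0%) and 3 higher. The D-type cyclins, their kinases, the CDK inhibitors and the RB family moved in both directions, with 4 of 13 tested genes lower (30.8%, against 39.9% of all tested genes), 6 higher (46.2%, against 17.9%) and a median of 0.11. The 4 that were lower were *Rbl1* (-0.85), *Cdk4* (-0.47), *Cdkn2c* (-0.46) and *Rbl2* (-0.19). The 6 that were higher were *Cdk6* (0.79), *Cdkn1a* (0.71), *Ccnd2* (0.48), *Rb1* (0.31), *Ccnd1* (0.13) and *Cdkn2d* (0.11). These genes were named after their values were seen, and the groups of *Ccnd1* overlapped (exact permutation p = 0.2). The number of the list that were higher was 4 (30.8%, against 13% of all tested genes) after rescaling to the total, 7 (53.8%, against 27.8%) under median ratio scaling, 6 (46.2%, against 25.9%) when values were quantile normalized and 8 (61.5%, against 27.2%) after the GC and length correction, with 3 to 4 lower. *Cdkn2a* and *Cdkn2b* were not listed in any library. The lists of mitosis and replication genes thus had medians below -0.15, that of all tested genes, and the list of D-type cyclins and inhibitors a median above it. The medians depended on the scaling: under median ratio scaling they were -0.23 for the 119 other mitosis genes, -0.27 for replication and 0.26 for the D-type list, beside -0.01 for all tested genes, and after rescaling to the total they were -0.48, -0.52 and 0.01, beside -0.25. After the GC and length correction they were -0.23, -0.31 and 0.21, beside -0.02. The difference between lists was not tested.

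**Figure D5:**
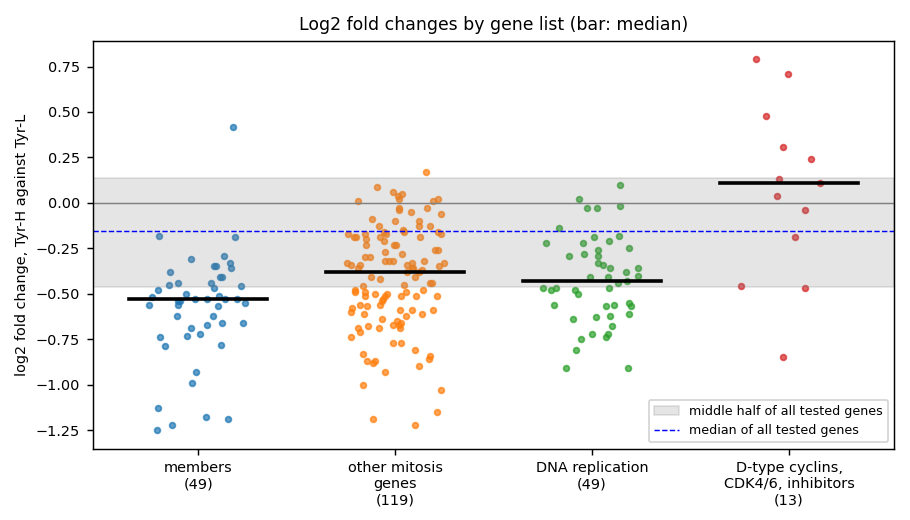
Log2 fold changes in Tyr-H cells relative to Tyr-L cells, 1 point a gene, for the 49 genes, 119 other mitosis genes, 49 DNA replication genes and 13 genes of D-type cyclins, their kinases, CDK inhibitors and the RB family, with a bar at each median and the middle 50% of all tested genes shaded. The medians are -0.53, -0.38, -0.43 and 0.11, beside -0.15 for all tested genes (dashed line).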

How the data were processed

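RNA of 3 Tyr-L and 3 Tyr-H libraries of B16 cells was made into mRNA libraries and sequenced from both ends, and groups and replicate numbers came from the submitters' labels. The authors deposited FPKM values per gene and library. The submitters' processing notes name Trimmomatic, HISAT2 and the build GRCm38.p6, and the quantifier, annotation and strand setting are not given in the sources used here. Normalization by FPKM makes each value relative to the library's total, so a few abundant genes can shift all others. Unlisted genes were taken as 0. Of the low values, 23.8% to 29.7% lay within 0.1 of a whole number of fragments. That is not far above the share that evenly spread fractions would give, so the depth estimate is rough and no count test was run.

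The 14336 genes that averaged 0.1 FPKM or more were compared on log2(FPKM + 0.1) with limma 3.58.1 in R 4.3.3 (eBayes with a variance trend, two-sided, Benjamini-Hochberg over all tested genes). Fold changes are on that scale and understate those of low genes. The threshold was an adjusted p of 0.05 and, where 2-fold is stated, a log2 fold change of 1 or more in size. Coordinates came from GENCODE M21 (GRCm38), which held 20709 of the 20788 identifiers, and promoters from RefSeq. The fit was tested on simulated data. Other steps used Python 3.11.15.

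The 49 genes and the other lists were chosen with earlier results of these data known. Named are all 49 genes, genes of the other lists that passed the 2-fold rule with a mean of at least 1 FPKM (at most 6 per list), *Tyr* and markers. *Anapc5* and 10 genes of the D-type cyclin list were named after their values were seen, and genes that overlap one of the 49 are named for their position. A gene that passed this rule is not reported here. Alternatives were pseudocounts of 0.01 and 1, 2 other filters, 3 scalings, 2 other variance estimates, the replicate number as a block, the GC and length correction (lowess span 0.3) with and without it, and each library left out. Corrections for length alone and GC alone were chosen after seeing the data.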

Additional observations from a re-analysis of the deposited data

How the results depend on the processing

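Of 980 values of the 49 genes under 20 alternatives, 955 kept their direction and their side of the 2-fold call, 20 kept the direction but lost the call, 4 gained it and 1 reversed. That was *Bub3* after the GC correction alone, at 0.00. Since 44 of the 49 genes are not 2-fold calls, this says little of them. By adjusted p, 27 values of 7 genes no longer passed: 10 of *Cdc25b*, 5 of *Bub3*, 4 of *Top2a*, 3 of *Prc1*, 2 each of *Anln* and *Mad2l1*, and 1 of *Nuf2*. The number of the 49 genes past 2-fold went from 5 to 0 after the GC and length correction, with or without the replicate block, and after the length correction alone, and to 1 (*Cenpf*) after the GC correction alone. It was 4 after median ratio scaling and 7 after rescaling to a total of 1000000 FPKM, with *Bub1b* (-1.08) and *Kif23* (-1.03) added. Their median of -0.53 became -0.63 after that rescaling, -0.38 after median ratio scaling, -0.42 after quantile normalization, after the GC and length correction with or without the block and after the length correction, and -0.40 after the GC correction. The 119 other mitosis genes had 1 higher gene, against 0 after rescaling to the total, 7 after median ratio scaling, 6 after quantile normalization, 11 after the GC and length correction, and 9 with the block added, after the length correction and after the GC correction. Of all tested genes, 1254 were called, 388 with a pseudocount of 1 and 640 with a mean of at least 1 FPKM. They split into 829 lower and 425 higher, against 588 and 538 after median ratio scaling and 508 and 599 after quantile normalization. With any 1 library left out, 1150 to 1281 genes were called in all, 5 to 6 of the 49 genes were past 2-fold, 47 to 48 were lower and 1 higher, the median was -0.56 to -0.51, and 89 to 94 of the other mitosis genes were lower and 1 to 2 higher, with 2 without Tyr-H library 2. The causes were not tested.

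Libraries with the same number did not deviate together (correlations over genes of 0.009, 0.034 and -0.173). Those of unlike number gave -0.148 to 0.129. No pairing by number was seen, but so few libraries cannot exclude one. With the replicate block 48 of the 49 genes were lower and 1 higher, 5 were past 2-fold, the median was -0.53, and 1258 of all tested genes were called. Of the other mitosis genes, 91 were then lower and 1 higher.

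Depth is known only as an estimate, and no count test was run. Transcript length and GC content go with the fold changes of all genes. Overlap with a gene of at least 1 FPKM on the opposite strand concerns 9 of the 49 genes, and with 3 libraries a group no single ratio can pass an exact test.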
